A study of Mus musculus with 2 samples.

Results

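Ednrb, Tns1, Npl, Fcrls and Retnla are 5 genes whose summed transcript levels were low in tumor-associated mononuclear phagocytes (TMPs) from mice lacking Fcmr, out of 27998 genes listed and 8701 with at least 5 CPM (UMIs of a gene per 1000000 UMIs of a library) in either library. They were chosen by these levels, so every difference between the genotypes given here is a description of the values that chose them. Their spread over cell states and their co-occurrence in single cells within each library were not used directly in the choice. Cell states held unlike shares of the 2 libraries, so neither is independent of the choice. The data are 2 droplet-based single-cell RNA libraries, 1 from Fcmr+/+ and 1 from Fcmr-/- C57Bl/6 mice. Both hold MerTk+ CD64+ TMPs sorted by flow cytometry from B16 melanoma tumors, B16 being a transplantable mouse melanoma cell line. The Fcmr-/- allele was not restricted to a cell type, controls were littermates of matched age and sex, and neither their age nor the number pooled into a library is stated in the sources used here. With 1 library per genotype no test between the genotypes was possible, and no spread between mice is known.

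After the limits on cells, 6352 Fcmr+/+ cells with 128408544 UMIs (unique molecular identifiers, each a counted transcript) and 7999 Fcmr-/- cells with 124630621 UMIs were kept. Fcmr-/- cells were shallower, with a median of 12911 UMIs against 17974 in Fcmr+/+ cells. Levels are UMIs summed over cells, scaled to CPM by the summed total, with exact Poisson 95% intervals. Shares of cells were taken after every cell was drawn down to 5000 UMIs, which left out 0 cells, with Clopper-Pearson 95% intervals. Log2 ratios are of Fcmr-/- to Fcmr+/+ with 1 CPM added. All intervals cover counting error only. Fcmr itself had 7 UMIs in the Fcmr+/+ library and 6 in the Fcmr-/- library, which does not check the genotype of either. The sorted markers were present in both: Mertk had 62.8 CPM in Fcmr+/+ and 48.7 in Fcmr-/- cells, Fcgr1 (CD64) had 250.4 and 394.3, and the macrophage gene Lyz2 had 8942 and 9011. The 2 libraries share 73 cell barcodes.

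The 5 genes have unrelated products. Ednrb encodes the endothelin receptor type B, a G protein-coupled receptor for the endothelin peptides that is known in endothelium, in neural crest and in pigment cells. Tns1 encodes tensin 1, an adaptor that ties integrins at focal adhesions to actin filaments. Npl encodes N-acetylneuraminate pyruvate lyase, a cytosolic enzyme that splits free sialic acid. Fcrls encodes an Fc receptor-like molecule with a scavenger receptor domain, well known as a transcript of mouse microglia. Retnla encodes resistin-like alpha (RELM alpha, also Fizz1), a secreted protein used as a marker of macrophages exposed to interleukin 4 or 13 through STAT6. In tissue macrophages, states are often described along a few programs, among them an interferon and antigen presentation program, a scavenging Mrc1-high program, hypoxia and the cell cycle.

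On GRCm38, Ednrb (ENSMUSG00000022122) lies on the minus strand of chromosome 14 from 103814625 to 103844402. Tns1 (ENSMUSG00000055322) lies on the minus strand of chromosome 1 from 73910231 to 74124449, and Npl (ENSMUSG00000042684) on the minus strand of the same chromosome from 153503015 to 153550045. Fcrls (ENSMUSG00000015852) lies on the minus strand of chromosome 3 from 87250758 to 87263738. Retnla (ENSMUSG00000061100) lies on the plus strand of chromosome 16 from 48842551 to 48844461. Fcmr is on chromosome 1 as well, 56.7 Mb from Tns1 and 22.6 Mb from Npl, and flanking sequence kept around a targeted allele cannot be told apart from the loss of Fcmr here. Of 513 chromosome 1 genes at 5 CPM or more, 3 (0.585%) were at least 2-fold lower in Fcmr-/- cells, and of 8181 genes on the other chromosomes 22 (0.269%) were. The 3 were Tns1, Npl and Il10, so the first share rests on 2 genes chosen for being lower, and nothing is read from it. The limit on flanking sequence holds for Il10 as well, whose distance from Fcmr is not given here.

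Promoter sequence from RefSeq was available for all 5 genes, as the 250 bases before the annotated start on GRCm38.p6. GENCODE M21 starts differ: it places 250 bases of the Npl window, 136 of Fcrls and 58 of Retnla in exons of the gene. The Ednrb window lies inside the gene span given above. Motifs and CG pairs are thus placed by the RefSeq starts only. Stretches of 3 of them that GENCODE M21 does not place in an exon of the gene are shown 5′ to 3′ on the gene's strand, because they span the range of base composition in the group. Capitals mark CG pairs in Ednrb (chr14:103843702-103843951, minus strand) and Tns1 (chr1:74124549-74124798, minus strand), which held none of the motifs described here. In Retnla (chr16:48842359-48842550, plus strand) capitals mark motif matches.
Ednrb: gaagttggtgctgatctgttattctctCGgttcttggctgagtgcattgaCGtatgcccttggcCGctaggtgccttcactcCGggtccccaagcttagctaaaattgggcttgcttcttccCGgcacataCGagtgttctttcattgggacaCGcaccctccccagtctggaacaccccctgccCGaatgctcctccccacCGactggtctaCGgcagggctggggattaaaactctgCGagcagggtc
Tns1: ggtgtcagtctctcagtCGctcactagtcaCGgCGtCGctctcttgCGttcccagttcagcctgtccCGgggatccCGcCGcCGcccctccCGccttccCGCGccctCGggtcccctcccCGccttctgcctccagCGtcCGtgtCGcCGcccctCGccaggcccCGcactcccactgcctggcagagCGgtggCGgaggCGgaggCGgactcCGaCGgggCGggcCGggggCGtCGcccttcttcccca
Retnla: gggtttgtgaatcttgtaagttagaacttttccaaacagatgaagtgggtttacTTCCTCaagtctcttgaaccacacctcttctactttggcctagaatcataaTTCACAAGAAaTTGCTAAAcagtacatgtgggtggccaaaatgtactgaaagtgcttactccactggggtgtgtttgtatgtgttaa
The 250-base window had 30 CG pairs in Tns1, 15 in Npl, 11 in Ednrb, 5 in Fcrls and 1 in Retnla, against a median of 6 over 32851 promoters in the table. Its GC content ran from 42.8% in Retnla to 74.4% in Tns1, with a median of 52.4% over all promoters.

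Letters of 8 motifs are described in these windows, searched on both strands. The STAT6 motif TTCNNNNGAA was found in Retnla alone, 145 bases before the start, and 5.85% of all promoters hold it. The C/EBP motif TTGCNNAA lay 134 bases before the start of Retnla and is held by 9.56% of promoters. Retnla and Fcrls both held the PU.1 motif GAGGAA (23.3% of promoters) and the TATA box letters TATAAA (12.4%), which in Retnla lay 30 bases before the start, past the stretch shown, and in Fcrls 217 bases. Npl held the E-box CACGTG (6.02%). The interferon response motif GAAANNGAAA (2.98% of promoters), the AP-1 motif TGANTCA (6.75%) and the glucocorticoid receptor motif ACANNNTGT (5.84%) were in none of the 5 windows. None of these 8 motifs was held by more than 2 of the 5 genes.

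Ednrb stood at 107.8 CPM (95% interval 106.0 to 109.6) among Fcmr+/+ cells and at 43.2 (42.1 to 44.4) in Fcmr-/- cells, a log2 ratio of -1.30. Tns1 stood at 96.1 CPM (94.4 to 97.8) and 42.6 (41.5 to 43.8), a log2 ratio of -1.15. Npl stood at 72.5 CPM (71.1 to 74.0) and 35.1 (34.1 to 36.2), a log2 ratio of -1.03. All 3 lay past 2-fold, where 0.287% of the 8701 genes were, or 25 genes in all. Since the members were chosen by this contrast, nothing is read from that share.

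Fcrls stood at 105.8 CPM (104.0 to 107.6) among Fcmr+/+ cells and at 54.6 (53.3 to 55.9) in Fcmr-/- cells, a log2 ratio of -0.94. Retnla stood at 74.0 CPM (72.5 to 75.5) and 38.1 (37.0 to 39.2), also a log2 ratio of -0.94. Both sat just short of 2-fold. The genes on either side of that line were 9130230L23Rik at -1.02 and Fkbp7 at -0.99, named for their place in the order after values were seen. From the lowest log2 ratio upwards Ednrb ranked 9, Tns1 13, Npl 22, Retnla 30 and Fcrls 31, and the median over all 8701 genes was 0.0023.

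The share of cells with a UMI was also lower in the Fcmr-/- library for each gene, but its order over the genes was not that of the levels. At 5000 UMIs a cell, 29.8% of Fcmr+/+ cells (28.6 to 30.9) and 15.7% of Fcmr-/- cells (14.9 to 16.6) had Tns1, and 27.8% (26.7 to 28.9) and 14.3% (13.6 to 15.1) had Fcrls. For Ednrb the shares were 22.5% (21.4 to 23.5) and 11.6% (10.9 to 12.3), and for Npl 21.8% (20.8 to 22.9) and 10.3% (9.66 to 11.001). Retnla was rare, with 4.53% (4.04 to 5.07) and 1.90% (1.61 to 2.22). Without drawing down, the shares were higher in each library, from 10.4% for Retnla to 60.2% for Tns1 in Fcmr+/+ cells and from 4.05% to 35.0% in Fcmr-/- cells.

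**Figure D1:**
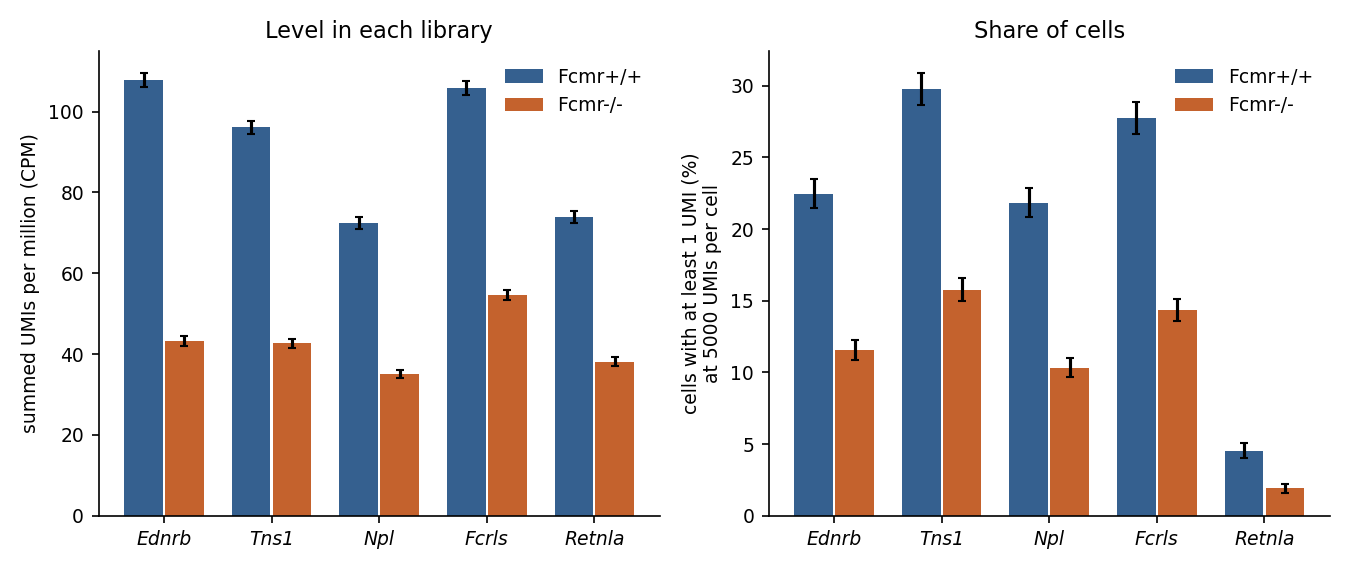
Levels of the 5 genes as CPM (left, Poisson 95% intervals) and as the share of cells with at least 1 UMI at 5000 UMIs per cell (right, Clopper-Pearson 95% intervals), with 1 bar per library and both axes from 0. In each pair the Fcmr-/- bar is the lower, from 43.2 against 107.8 CPM for Ednrb to 54.6 against 105.8 for Fcrls, and Retnla has the lowest share of cells.

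Free RNA can place UMIs in droplets whose cell does not express a gene, and a set of cells that should lack these genes was sought for comparison. Cells with at least 3 UMIs of T and NK cell genes numbered 3 in the Fcmr+/+ library and 32 in the Fcmr-/- library. The 3 cells had a median of 12626 UMIs and none had a UMI of the 5 genes at 5000 UMIs. The 32 cells had a median of 18598 UMIs and 5150 CPM of Lyz2, so they were not free of macrophage RNA. Of them 3.13% had Ednrb, Tns1, Fcrls or Retnla each at 5000 UMIs and 15.6% had Npl, against 10.3% for Npl in all Fcmr-/- cells. With 32 cells these shares are coarse. Before drawing down, the 32 cells had 33.7 CPM of Ednrb, 24.1 of Tns1, 25.7 of Npl, 32.1 of Fcrls and 149.4 of Retnla. All Fcmr-/- cells had 43.2, 42.6, 35.1, 54.6 and 38.1 CPM, so the 32 cells were not free of these genes. The part of free RNA in the shares was not tested further.

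The members were not spread alike over single cells. In Fcmr+/+ cells the 1% of cells with the most UMIs of a gene (64 cells) held 7.76% of the UMIs of Tns1, 9.87% of Fcrls, 10.3% of Npl and 16.8% of Ednrb. For Retnla its top 64 cells held 85.0%, and in the Fcmr-/- library 80 cells held 94.6%. A single Fcmr+/+ cell had 650 Retnla UMIs and a single Fcmr-/- cell 387, where the highest count of any other member in a cell was 63. Only 15 Fcmr+/+ and 9 Fcmr-/- cells carried 50% of all Retnla UMIs, while 807 and 701 cells were needed for Tns1. Retnla UMIs thus lay in few cells with very high counts, and its Poisson intervals do not cover that spread between cells.

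When the 10 cells with the most UMIs of a gene were left out of each library, Retnla had 46.2 CPM in Fcmr+/+ and 17.1 in Fcmr-/- cells, a log2 ratio of -1.38 in place of -0.94. Those 10 cells held 37.7% of its Fcmr+/+ UMIs and 55.1% of its Fcmr-/- UMIs. For the other 4 genes the log2 ratio without the top 10 cells was -1.32 (Ednrb), -1.16 (Tns1), -1.04 (Npl) and -0.96 (Fcrls).

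**Figure D2:**
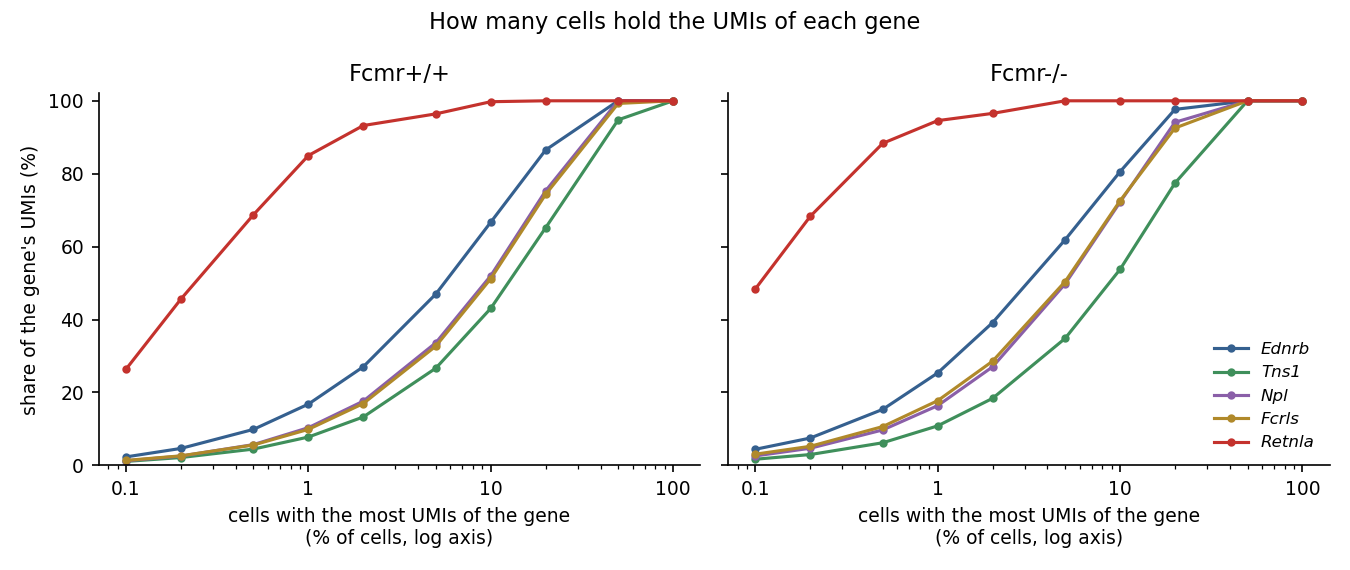
Share of a gene's UMIs (vertical axis, %) held by the cells with the most of them (horizontal axis, % of cells on a log axis), 1 line per gene and 1 panel per library. Retnla lies far above the others, with 85.0% of its Fcmr+/+ UMIs and 94.6% of its Fcmr-/- UMIs in 1% of cells, while Tns1 is the most evenly spread.

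Cell states were then taken from 10 clusters made without these 5 genes, so that their levels did not shape the clusters. Clusters are given by number and leading genes. Cluster 1 (Iigp1, Serpina3g, Cxcl9) held 90 Fcmr+/+ and 2320 Fcmr-/- cells and cluster 9 (Mfge8, Plpp3, Npy) 161 and 767, so these are mostly of 1 library and may reflect that library. Cluster 4 (Tfrc, Cnrip1, Gas6) held 1191 and 415 cells, and Ednrb and Npl came next among its leading genes. Cluster 2 (Ccl17, Il1r2, Ifitm1) held 1263 and 809, cluster 3 (Cxcl3, Areg, Ppbp) 832 and 918, and cluster 5 (Cenpf, Nusap1, Prc1, genes of cell division) 732 and 761. Cluster 6 (Acp5, Itgax, Atp6v0d2) held 816 and 586, cluster 7 (Hbb-bs, Rhov, Adm) 628 and 545, cluster 8 (Rsad2, Cmpk2, Ifit3, type I interferon response genes) 258 and 732, and cluster 10 (Adm, Pdgfa, Cdk18) 381 and 146.

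Within the Fcmr+/+ library, 4 of the 5 genes were highest in the same state and were detected in all. That state, cluster 4, held 18.8% of Fcmr+/+ and 5.19% of Fcmr-/- cells. A choice by the difference between the libraries can favor genes that are high in it. Ednrb had 211.0 CPM (205.8 to 216.2) in cluster 4, next 115.5 (110.2 to 121.0) in cluster 3, and least in cluster 6 with 31.7 (28.7 to 34.9), a 6.66-fold range. Cluster 4 held 45.8% of its Fcmr+/+ UMIs, and 23.4% of the Fcmr+/+ UMIs of all genes. The lowest neighbours in that order, clusters 7 (32.3 CPM) and 6, had overlapping intervals.

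Tns1 had 144.0 CPM (139.7 to 148.3) in cluster 4 and 119.4 (114.9 to 124.1) in cluster 5, with clusters 6 at 104.2 and 10 at 102.3 overlapping each other. Its lowest level was 29.3 CPM (25.7 to 33.4) in cluster 7, a 4.91-fold range, the narrowest of the 5. Npl had 132.5 CPM (128.5 to 136.7) in cluster 4 and 106.0 (101.8 to 110.4) in cluster 5, and 14.0 (11.5 to 16.9) in cluster 7, a 9.45-fold range. Npl was thus the most uneven of the 4 genes that were widely detected.

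Fcrls had 161.7 CPM (157.1 to 166.3) in cluster 4 and 159.8 (154.6 to 165.2) in cluster 5, which overlap, and 19.9 (15.2 to 25.6) in cluster 9, its lowest. At 5000 UMIs a cell, 47.8% of Fcmr+/+ cells of cluster 4 had Fcrls, 45.4% Tns1, 44.2% Npl and 40.1% Ednrb. In cluster 7 the shares were 10.4%, 13.1%, 4.94% and 8.92%. Cells of clusters 4 and 5 were also among the deepest, with medians of 22266 and 26282 UMIs a cell against 9070 in cluster 7, and the part of cell size in these levels was not tested.

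Retnla followed another order. In Fcmr+/+ cells it was highest in cluster 8 with 207.7 CPM, but 650 of the 724 UMIs there came from 1 cell, and the level without that cell was 21.3 CPM. In cluster 2 it had 147.9 CPM (143.0 to 152.9), or 136.9 without its top cell, and that cluster held 36.2% of its Fcmr+/+ UMIs. Cluster 1 had 147.0 CPM from 90 cells, cluster 5 95.6 and cluster 4 84.0. The remaining clusters had from 6.89 CPM in cluster 7 to 17.9 in cluster 9, where 42 of 55 UMIs were in 1 cell.

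**Figure D3:**
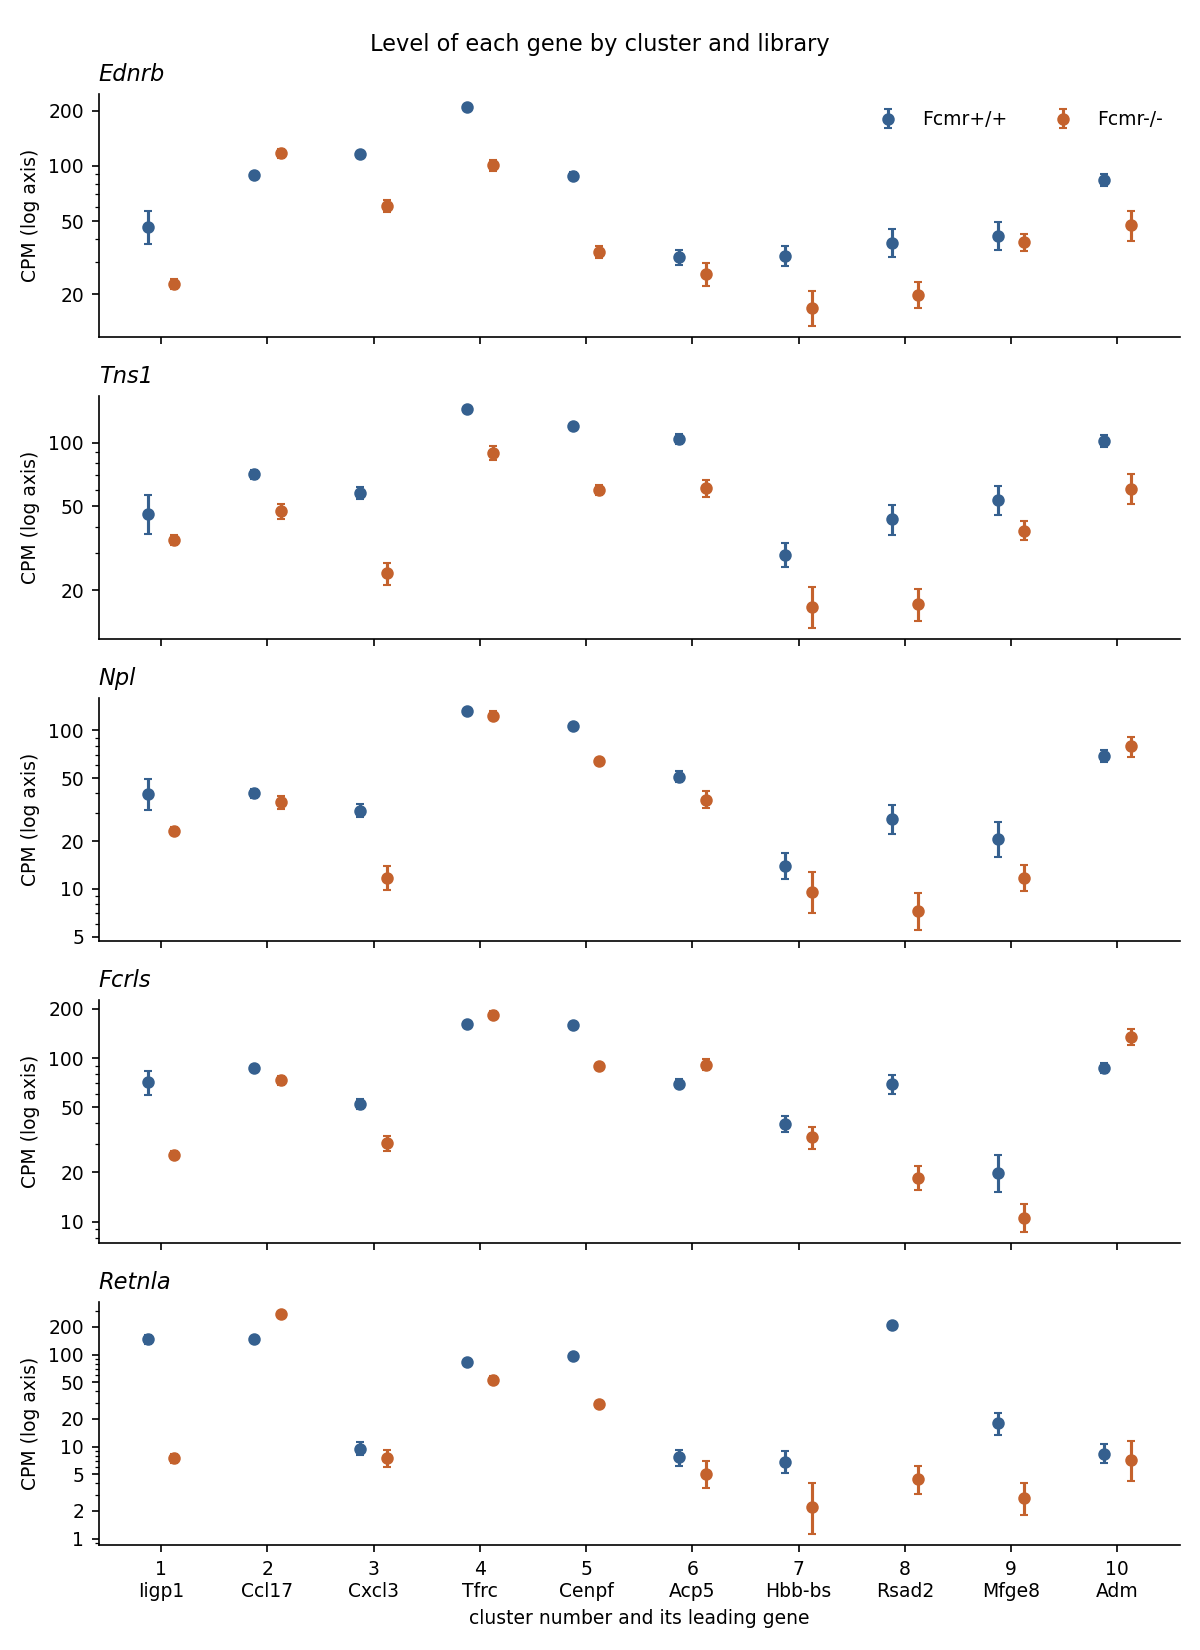
CPM of each gene (log axis) in 10 clusters, 1 point per library with its Poisson 95% interval, and the leading gene under each cluster number. Ednrb, Tns1, Npl and Fcrls peak in cluster 4 in Fcmr+/+ cells, at 211.0, 144.0, 132.5 and 161.7 CPM, and Retnla in Fcmr-/- cells peaks in cluster 2 at 274.3 CPM.

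In the Fcmr-/- library the order over states was similar for 3 genes. Cluster 4 was again highest for Fcrls with 184.3 CPM (174.9 to 194.2), for Npl with 123.4 (115.6 to 131.5) and for Tns1 with 89.3 (82.7 to 96.2). Ednrb was highest in cluster 2 with 117.3 CPM (111.2 to 123.6), next in cluster 4 with 101.0 (94.0 to 108.4), whose intervals do not overlap. Retnla had 274.3 CPM (264.9 to 283.9) in cluster 2, which held 68.3% of its Fcmr-/- UMIs, and 53.4 (48.4 to 58.8) in cluster 4. In the large cluster 1 the levels were 34.7 CPM for Tns1, 25.5 for Fcrls, 23.1 for Npl, 22.7 for Ednrb and 7.51 for Retnla, each below that library's total level.

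Within clusters the log2 ratio was below 0 in 44 of 50 gene and cluster pairs (88.0%). Tns1 was lower in Fcmr-/- cells in 10 of 10 clusters, with log2 ratios from -1.29 to -0.40, where 4.91% of the 8701 genes were lower in every cluster. With clusters made on 20 principal components it was lower in 9 of 10, and the highest ratio was 0.31. Ednrb, Npl and Retnla were lower in 9 of 10 and Fcrls in 7 of 10. Of all 8701 genes 19.5% were lower in at least 8, with 719 in exactly 8, 552 in exactly 9 and 427 in all 10. A further 726 genes were lower in exactly 7, as Fcrls was. The members were chosen by the same contrast over all cells, so these counts describe where the difference lay and support nothing.

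For Ednrb the within-cluster ratio ran from -1.36 in cluster 5 (88.3 against 33.9 CPM) to 0.39 in cluster 2 (89.0 against 117.3 CPM). In cluster 9, with 41.8 CPM (34.8 to 49.6) against 38.3 (34.5 to 42.4), the intervals overlap, and without the top cell of each library the log2 ratio there was 0.18 in place of -0.12. Npl ran from -1.79 in cluster 8 (27.5 against 7.28 CPM) to 0.20 in cluster 10 (68.9 against 79.2 CPM, overlapping intervals), and in cluster 4 its levels of 132.5 and 123.4 CPM also overlapped. Fcrls ran from -1.84 in cluster 8 (69.1 against 18.6 CPM) to 0.62 in cluster 10 (87.2 against 134.2 CPM). Fcrls was also the higher in Fcmr-/- cells in cluster 4, with 184.3 against 161.7 CPM, and in cluster 6, with 91.0 against 69.8 CPM. With genes scaled within each library before clustering, Fcrls was lower in 11 of 11 clusters, with a highest log2 ratio of -0.37. That setting takes out each gene's mean difference between the libraries before clustering. It can bring ratios within clusters nearer to those over all cells.

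Retnla ran from -5.27 in cluster 8, where 1 Fcmr+/+ cell set the level, to 0.89 in cluster 2 (147.9 against 274.3 CPM). Without the top cell of each library these were -2.86 and 0.82. With clusters made on 20 principal components Retnla was lower in 8 of 10, and its highest log2 ratio was 4.67. In cluster 1 it had 147.0 CPM in the 90 Fcmr+/+ cells and 7.51 in the 2320 Fcmr-/- cells. The share of cells with Retnla in cluster 2 was 8.31% (6.85 to 9.97) in Fcmr+/+ and 6.80% (5.16 to 8.76) in Fcmr-/- cells, and these intervals overlap, while the CPM ran the other way.

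The ratio was also computed with the makeup of clusters held fixed. With the Fcmr-/- level of each cluster weighted by the Fcmr+/+ share of UMIs, the log2 ratio was -0.78 for Tns1 (-1.15 over all cells) and -0.69 for Ednrb (-1.30). It was -0.32 for Npl (-1.03), -0.13 for Fcrls (-0.94) and -0.09 for Retnla (-0.94). With the Fcmr-/- makeup in place of the Fcmr+/+ makeup, it was -0.73, -0.72, -0.58, -0.63 and -1.37 in the same order of genes. That makeup gives 33.9% of the weight to cluster 1, whose Fcmr+/+ level comes from 90 cells. Of the Fcmr+/+ Retnla UMIs in cluster 1, 73 of 294 lay in 1 cell, and in cluster 8 650 of 724 did. Tns1 and Ednrb gave close values at both makeups, while Fcrls and Retnla depended on which was used. Clusters made from genes scaled within each library gave -1.02 for Tns1, -1.11 for Ednrb, -0.78 for Npl, -0.68 for Fcrls and -0.63 for Retnla at the Fcmr+/+ makeup. Over all cells without cluster 1 the log2 ratio was -1.005 for Ednrb, -1.04 for Tns1, -0.81 for Npl, -0.61 for Fcrls and -0.43 for Retnla. Without cluster 2 it was -1.63 for Ednrb and -2.04 for Retnla.

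**Figure D4:**
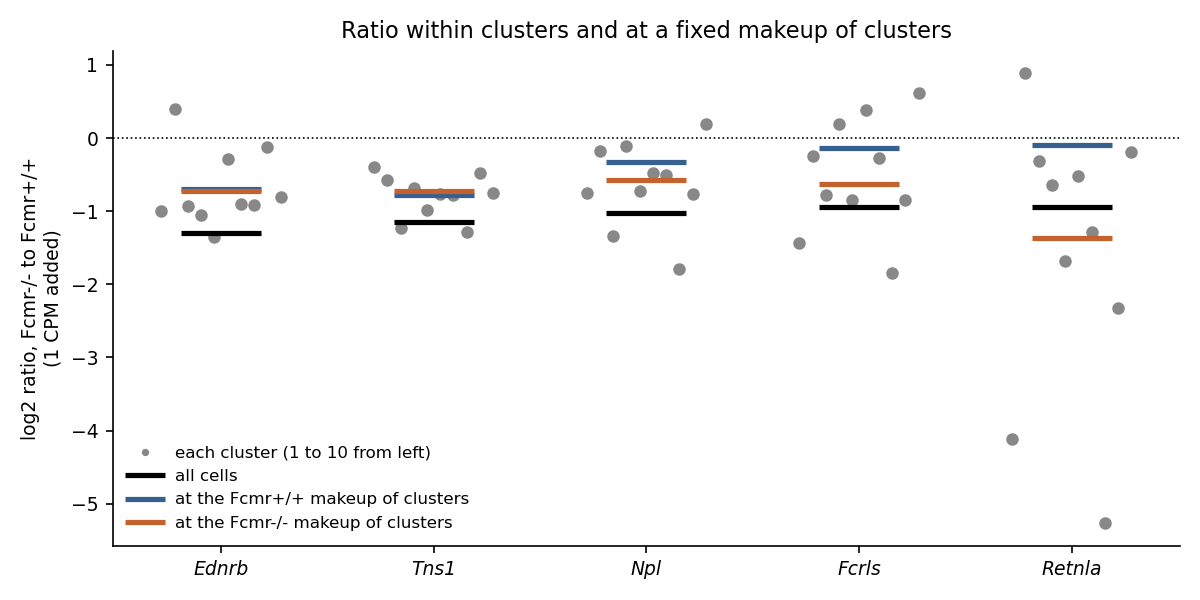
Log2 ratio of Fcmr-/- to Fcmr+/+ CPM with 1 CPM added, for each gene in each cluster (gray points, clusters 1 to 10 from left to right), over all cells (black line), and with the makeup of clusters held at that of Fcmr+/+ (blue) or Fcmr-/- (orange). For Tns1 all points lie below 0, and for Fcrls and Retnla the blue lines, at -0.13 and -0.09, lie near 0.

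The libraries were also compared within tertiles of all cells by the summed share of an interferon or marker gene list. In the tertile with the lowest type I interferon genes (10 genes such as Isg15 and Ifit1), Ednrb had 105.1 CPM in Fcmr+/+ and 47.4 in Fcmr-/- cells, and Tns1 104.7 and 46.9. Fcrls there had 105.9 and 78.6 CPM, a log2 ratio of -0.43, against -1.40 in the highest tertile. For type II interferon genes (10 genes such as Cxcl9 and Gbp2), the log2 ratio of Ednrb was -0.69 in the lowest tertile and -1.75 in the highest. That of Fcrls was -0.37 and -1.45, while that of Npl was -0.80 and -0.87. Retnla was the higher in Fcmr-/- cells in the lowest tertile, with 34.1 against 47.4 CPM and a log2 ratio of 0.47, and had -2.66 in the highest. Since 15 Fcmr+/+ and 9 Fcmr-/- cells carried 50% of its UMIs, Retnla values by tertile of any list can rest on few cells. How far they do was not tested. In the highest tertile the type II genes themselves summed to 479.2 CPM in Fcmr+/+ and 1037 in Fcmr-/- cells. In the lowest they summed to 4.54 and 1.56 CPM, so the cells compared in these tertiles were not alike.

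By tertiles of the Mrc1-high list (8 genes of scavenging macrophages such as Mrc1 and Folr2), Ednrb was higher in each next tertile within each library. It had 26.0, 63.3 and 173.5 CPM from the lowest to the highest tertile in Fcmr+/+ cells and 13.5, 34.5 and 97.3 in Fcmr-/- cells. Npl had 16.3, 57.9 and 105.3 CPM and 10.0, 40.0 and 62.7. At like list levels the log2 ratio lay from -0.89 to -0.83 for Ednrb, from -0.74 to -0.52 for Npl and from -1.09 to -0.73 for Tns1. From the lowest to the highest tertile it went from -1.32 to -0.50 for Fcrls and from -2.57 to -0.10 for Retnla. The level also differed with depth: in the quartile of cells with the fewest UMIs (at most 9672) Ednrb had 50.6 and 34.5 CPM, and in the deepest quartile (over 22816) 135.0 and 51.4. Tns1 had a log2 ratio of -1.08 in the lowest and -1.06 in the highest quartile of depth. From the lowest to the highest quartile that of Ednrb was -0.54, -0.59, -1.20 and -1.38. Npl had -0.72, -0.55, -0.59 and -0.95, short of 2-fold in each. Fcrls had -0.70, -0.37, -0.76 and -1.06, and Retnla -0.34, -0.62, -1.98 and -0.34. The lowest quartile held 1073 Fcmr+/+ and 2514 Fcmr-/- cells, and the deepest 2133 and 1456.

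Pearson r between members across single cells was small, and the highest values were those of pairs with Npl. Between Npl and genes of like level in Fcmr+/+ cells at 5000 UMIs, the median r was 0.014 and the 95th percentile 0.078. These were 0.008 and 0.073 for Ednrb, 0.014 and 0.074 for Tns1, 0.013 and 0.078 for Fcrls, and 0.00015 and 0.033 for Retnla. Pearson r across Fcmr+/+ cells at 5000 UMIs, a description over 6352 cells of 1 library, was 0.21 for Ednrb and Npl, 0.18 for Npl and Fcrls, 0.15 for Tns1 and Npl and 0.12 for Ednrb and Tns1. Ednrb and Fcrls had 0.07 and Tns1 and Fcrls 0.08. Retnla had 0.08 with Fcrls, 0.04 with Ednrb, -0.00069 with Tns1 and -0.02 with Npl. In 7999 Fcmr-/- cells the highest values were again those of Npl, with 0.20 to Fcrls and 0.13 to Tns1, and the median over 10 pairs was 0.090 against 0.078 in Fcmr+/+ cells.

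Both Ednrb and Npl were in 509 Fcmr+/+ cells, 1.63 times the 312 that independent shares would give, and 1.34 times what independent shares within each cluster would give. For Npl and Fcrls the count was 577 cells, 1.499 times over all cells and 1.14 times within clusters. The mean r within clusters was 0.10 for Ednrb and Npl and 0.09 for Npl and Fcrls, below the values over all cells. Of Fcmr+/+ cells 36.5% had none of the 5 genes, 33.0% had 1, 20.3% had 2 and 10 cells (0.157%) had all 5. Independent shares over all cells would give 29.4% with none and 0.0184% with all 5. A further 1.90% had 4, which was 3.14 times the independent share. In Fcmr-/- cells 61.1% had none and 0 of 7999 had all 5, which allows a share of up to 0.0375%. There 35 cells (0.438%) had 4, which was 10.8 times the independent share over all cells. No share within clusters was computed for cells with 4 genes. In Fcmr-/- cells the count for Npl and Fcrls was 2.40 times over all cells and 1.41 times within clusters. For Ednrb and Npl it was 1.59 and 1.39 times.

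**Figure D5:**
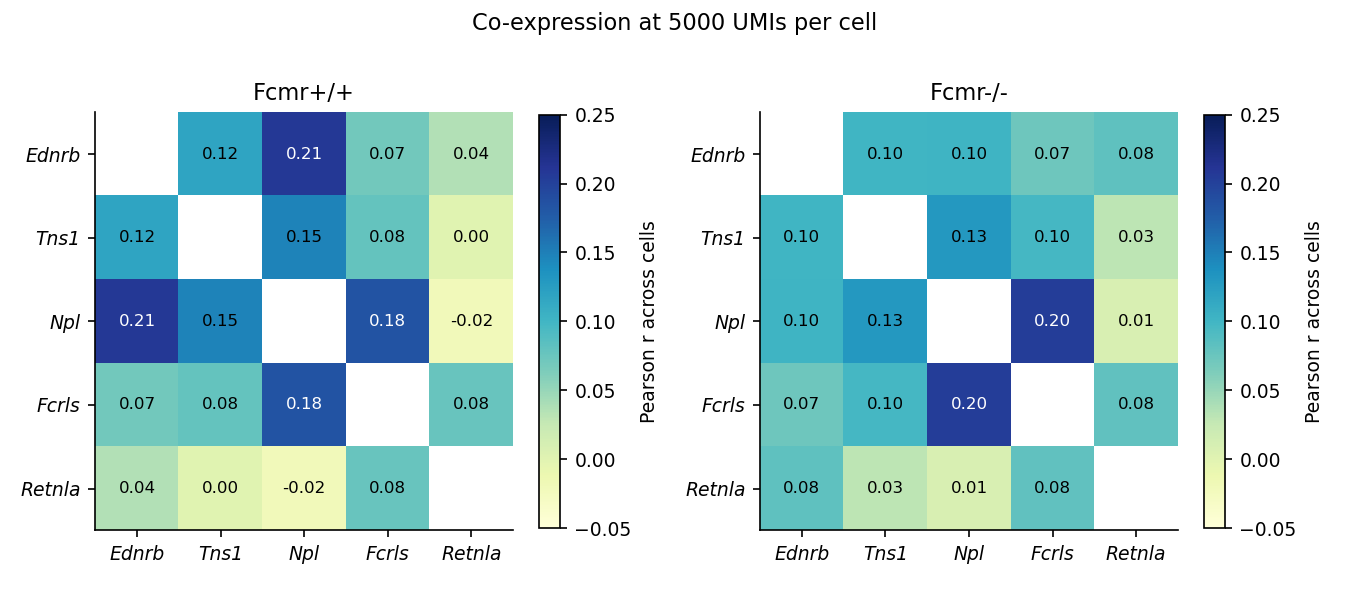
Pearson r between pairs of the 5 genes across the cells of each library at 5000 UMIs per cell, from ln of 1 plus the UMIs, with the value in each square. Npl has the highest values in Fcmr+/+ cells, 0.21 with Ednrb and 0.18 with Fcrls, and Retnla the lowest.

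In cluster 4, 24.7% of Fcmr+/+ and 14.5% of Fcmr-/- cells had at least 3 of the 5 genes, and 10.5% and 17.6% had none. In cluster 7 the shares with 3 or more were 0.318% and 0% (0 of 545 cells, which allows up to 3 cells). In cluster 8, 61.6% of Fcmr+/+ and 79.8% of Fcmr-/- cells had none. In cluster 5 the shares with 3 or more were 18.2% and 6.96%. UMIs of each of the 5 genes were present in all 10 clusters of both libraries.

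The genes most like each member were sought among 5233 others with at least 20 CPM in Fcmr+/+ cells, by r at 5000 UMIs over the 6352 cells. For Ednrb they were Cbr2 (r 0.32), Gas6 (0.28), Sepp1 (0.26), F13a1 (0.26) and Folr2 (0.25), and Npl ranked 14. For Npl they were Gas6 (0.36), Serpinb6a (0.30), Sepp1 (0.29), Mrc1 (0.29) and Cbr2 (0.29), and Ednrb ranked 25 and Fcrls 37. Gas6 encodes a ligand of the receptor MerTk, Sepp1 selenoprotein P, and Mrc1 and Folr2 the mannose receptor and a folate receptor.

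For Tns1 the genes most like it were Sepp1 (0.25), Timp2 (0.24), Gas6 (0.23), Serpinb6a (0.22) and Grn (0.22). For Fcrls they were Gas6 (0.29), C1qa (0.28), Mrc1 (0.28), C1qc (0.27) and Cd81 (0.25), C1qa and C1qc being chains of complement C1q. Gas6 was thus among the 5 closest genes of all 4, and Gas6 itself had 263.3 CPM in Fcmr+/+ and 144.0 in Fcmr-/- cells.

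For Retnla the closest genes were Ear2 (0.31), Naaa (0.18), Fn1 (0.16), Crip1 (0.15) and Mgl2 (0.15), none of them shared with another member. Ear2 is an eosinophil-associated ribonuclease gene and Mgl2 a lectin of macrophages and dermal dendritic cells. Ear2 had 26.8 CPM in Fcmr+/+ and 13.3 in Fcmr-/- cells, and was a leading gene of cluster 2. Of the other members Fcrls ranked 37 for Retnla, Ednrb 289, Tns1 2731 and Npl 4680 of 5233.

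Fcmr+/+ cells with Ednrb at 5000 UMIs had 7182 CPM of the Mrc1-high list against 4968 in cells without it, 1.45 times. They had 0.48 times the type I interferon list and 0.59 times the MHC class II list. Cells with Npl had 0.38 times the MHC class II list and 2.11 times the G2 and M phase list of 7 division genes such as Mki67. Cells with Fcrls had 1.27 times the C1q-high list and 1.89 times the G2 and M list. Fcmr+/+ cells with Retnla had 1.46 times the MHC class II list and 2.07 times the type II interferon list. In Fcmr-/- cells with Retnla these were 1.36 and 0.69 times. The type II interferon list had 241.7 CPM in 288 Fcmr+/+ cells with Retnla and 116.9 in those without. In Fcmr-/- cells it had 353.9 CPM in 152 cells with Retnla and 514.3 in those without. The ratio thus turned although the level in cells with Retnla was the higher in the Fcmr-/- library.

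Markers of other cell types that could carry Ednrb or Tns1 were present at unlike levels. Ednrb is known from pigment cells and endothelium, and 10 melanoma genes summed to 83.7 CPM in Fcmr+/+ and 114.6 in Fcmr-/- cells. Ednrb itself had 107.8 and 43.2 CPM. Of the melanoma genes Mitf had 37.5 and 44.1 CPM, Pmel 14.8 and 24.8, Dct 14.4 and 22.6, and Sox10 0.319 and 0.457. Dct was also a leading gene of cluster 10, at 72.9 CPM. Fcmr+/+ cells with Ednrb had 1.07 times the melanoma list and 0.59 times the endothelial list of cells without it. They had 1.98 times the pericyte and smooth muscle list (6.59 against 3.33 CPM), and Fcmr-/- cells with Ednrb had 1.37 times. The part of these cell types in the Ednrb values was not tested. Of 7 endothelial genes, Tek had 0 UMIs in both libraries and Cldn5 0 and 2, while Flt1 had 1.11 and 8.80 CPM and Kdr 2.78 and 6.91. Fibroblast genes (6) summed to 0.880 and 0.818 CPM and pericyte and smooth muscle genes (7) to 4.45 and 4.20. T and NK cell genes (7 listed, 6 in the files) summed to 0.864 CPM in Fcmr+/+ and 14.5 in Fcmr-/- cells, and their part in the differences between the libraries was not tested.

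Of 9 microglia genes listed because Fcrls is known there, 6 reached 5 CPM. Their median log2 ratio was -0.38, against 0.0023 over all 8701 genes. Of the 6, 4 were lower, Gpr34 by over 2-fold (11.7 against 5.03 CPM), where 0.287% of all genes were. P2ry12 had 21.6 and 12.9 CPM and Tmem119 16.2 and 11.5, while Cx3cr1 had 23.7 and 33.2 and Olfml3 4.01 and 6.07. Sall1, which defines microglia, had 0 UMIs in both libraries, which allows up to 3 counts in each.

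In the endothelin list of 14 genes without Ednrb, 0 of 8 with at least 5 CPM were past 2-fold in either direction, with a median log2 ratio of 0.04. Ednra, Edn2 and the protease Kel had 0 UMIs in both libraries, and the ligand Edn1 had 1.57 and 3.50 CPM. The endothelin-converting enzyme genes Ece1 (6.51 and 10.7 CPM) and Ece2 (10.3 and 13.1 CPM) were the higher in Fcmr-/- cells. Over all 8701 genes the median was 0.0023, and 0.793% were at least 2-fold higher.

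Among 21 focal adhesion genes, 0 of 16 at that level were past 2-fold, with a median of 0.0088. Of the other tensins only Tns3 passed 5 CPM, at 72.3 and 82.5 CPM, and Tns2 and Tns4 were under 5 CPM. In the sialic acid list of 18 genes, 0 of 12 were past 2-fold, with a median of 0.03. Renbp, which acts on the N-acetylmannosamine that Npl releases, had 75.6 and 77.5 CPM, and the lysosomal sialidase Neu1 83.9 and 83.4. The Fc receptor-like genes Fcrl1, Fcrl5, Fcrl6, Fcrla and Fcrlb were all under 5 CPM, as were Retn, Retnlb and Retnlg.

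Of 28 interleukin 4 response genes listed, 27 were in the files and 21 reached 5 CPM. Among these 1 was over 2-fold lower (Ccl17, 12.8 against 5.43 CPM), 0 were over 2-fold higher, and the median log2 ratio was 0.06. Over all 8701 genes 0.287% were at least 2-fold lower and 0.793% at least 2-fold higher. Of the receptor and signal transducer genes, Il4ra had 97.5 and 93.7 CPM, Stat6 54.3 and 56.0 and Il13ra1 30.04 and 35.6. The shared receptor chain Il2rg was the higher in Fcmr-/- cells, with 32.8 against 64.2 CPM and a log2 ratio of 0.95. Arg1 had 1002 and 1308 CPM, Chil3 41.5 and 62.0, Mrc1 907.0 and 627.0 and Mgl2 46.0 and 33.8. The Mrc1-high list had 7 of 8 genes at 5 CPM or more, all 7 lower, with a median of -0.55 against 0.0023 over all genes. Cd163 was past 2-fold (26.5 against 9.35 CPM). Mrc1, Folr2, Cbr2 and Gas6 of this list were among the genes closest to members in Fcmr+/+ cells. The list is thus not independent of the members.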

How the data were processed

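Single-cell RNA was measured in 1 Fcmr+/+ and 1 Fcmr-/- library of sorted TMPs. The deposited values are raw whole-number UMI counts, which the authors obtained with the Cell Ranger pipeline on GRCm38. For 0 UMIs, up to 3 were taken as possible. No column was left unmapped.

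The study's limits were applied: 14351 of 14409 cells, with 200 to 7000 genes and up to 30% mitochondrial UMIs, were kept. Doublets beyond these were not removed. Clusters were made in Seurat 5.3.0 (log-normalization to 10000, variable genes with the 5 members left out, 10 principal components, 30 neighbors, Louvain resolution 0.8), where the submitters' processing notes name Seurat 2.1.0. Other steps used Python 3.11.15, numpy 2.4.6 and scipy 1.17.1, with TMM factors from edgeR 4.0.16. Depth was 128408544 and 124630621 UMIs. A fold was counted among genes with at least 5 CPM in either library.

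The calculations were tested on simulated data. Of the promoter motifs searched, 1 is not reported here. The 5 genes and all lists were chosen with earlier results of these data known. Other genes are named from those lists, as the 5 genes closest to a member in Fcmr+/+ cells by r, or as leading genes of a cluster by fold among genes with at least 50 CPM. Alternatives to the scaling, limits on cells, thinning and clustering are given at the end.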

Additional observations from a re-analysis of the deposited data

Results flagged for a closer look

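In 5 gene and cluster pairs the difference ran opposite to that over all cells, beyond counting error. The difference between clusters was not tested, since each genotype is 1 library. Ednrb had a log2 ratio of 0.39 in cluster 2. Fcrls had 0.19 in cluster 4, 0.38 in cluster 6 and 0.62 in cluster 10. With genes scaled within each library before clustering, Fcrls was lower in 11 of 11 clusters (highest -0.37), and at resolution 0.4 its highest ratio was 0.05. The scaling within libraries takes out mean differences between them, which can bring ratios within clusters nearer to those over all cells. Retnla had 0.89 in cluster 2, where 387 of 3241 Fcmr-/- UMIs were in 1 cell.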

How the results depend on the processing

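Each genotype is 1 library from an unstated number of mice, so differences between mice, libraries and genotypes cannot be told apart, and intervals cover counting error only. No paired analysis was possible because there was 1 library per genotype and the labels give no replicate numbers. The medians and counts below kept their direction. Values in single clusters did not always. With 20 principal components Tns1 was lower in 9 of 10 clusters (highest ratio 0.31) and Retnla in 8 of 10 (highest 4.67). With genes scaled within each library, which takes out mean differences between the libraries, Fcrls was lower in 11 of 11 (highest -0.37). Ednrb in cluster 9 turned without its top cells. The median log2 ratio over the 5 genes was -1.03. It was -0.95 with 5 CPM added, -1.15 with cells thinned to 5000 UMIs and -1.11 without the 5% of cells with the most UMIs. In alternatives chosen after seeing the data, as were those without the top cell of a cluster, it was -0.81 without cluster 1, -0.71 without clusters 1 and 9, -1.25 without cluster 2 and -1.16 without the 10 cells with the most UMIs of the gene. Genes at least 2-fold lower numbered 25, against 15 with a minimum of 20 CPM and 11 with 5 CPM added, where 2 of the 5 members in place of 3 were past 2-fold. At the Fcmr+/+ makeup the median of -0.32 was -0.51 at resolution 0.4, -0.78 with genes scaled within each library and -0.43 with cells thinned before clustering. The median difference in the share of cells, -11.5 percentage points, was -23.2 without thinning, -8.25 at 3000 UMIs and -16.1 at 10000. The median r was 0.078 in Fcmr+/+ and 0.090 in Fcmr-/- cells, against 0.155 and 0.142 without thinning and 0.046 and 0.052 within clusters. The cause of these shifts was not tested.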

Other observations

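The genes with lower log2 ratios than Ednrb, named after their values were seen, are given from the lowest. They were Mt2 (445.4 against 120.9 CPM), Fkbp5 (40.4 against 11.7), Amica1 (18.3 against 5.45) and Klf9 (42.6 against 13.8). Next came Cd5l (26.0 against 8.47), Cirbp (65.0 against 22.8), Egr1 (201.5 against 72.8) and Cd163 (26.5 against 9.35). Il10 (116.3 against 49.6), on chromosome 1 as Fcmr is, ranked 11. Mt2, Fkbp5 and Klf9 are known targets of the glucocorticoid receptor. Cirbp is a cold-inducible RNA-binding protein gene, and Il10 encodes an anti-inflammatory cytokine. No shared cause of these levels was tested.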
